A study of Mus musculus with 9 samples.

Results

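Tristetraprolin (TTP, gene Zfp36) is a zinc finger protein that binds AU-rich elements in the 3' untranslated region (3'UTR) of short-lived mRNAs and recruits the machinery that shortens the poly(A) tail, after which the mRNA decays. It is best known in macrophages for limiting cytokine mRNAs, but mRNAs of growth control, prostaglandin synthesis, hypoxia signaling and cell migration have also been described as its targets. This report is on 10 such non-cytokine mRNAs, chosen by name as mRNAs described elsewhere as TTP targets: Ptgs2, Pim1, Pim3, Plk2, Plk3, Myc, Ccnd1, Vegfa, Plaur and Hif1a. All 10 were among the 25494 genes of the deposited expression table, and all 10 were listed in each of the 3 comparisons between groups, so that no member was lost to a filter on low values.

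The cells were immortalized bone marrow-derived macrophages of TTP-deficient mice, and all 3 groups carried the same human MYC and RAS oncogenes. They were transduced with a doxycycline-inducible retroviral vector for GFP (group GFP), GFP-TTP (group TTP) or GFP-TTP-AA (group TTP-AA), and GFP-positive cells were sorted. TTP-AA carries the substitutions S52A and S178A, which remove the serines through which the kinase MK2 holds TTP inactive after stimulation. In all groups the cells received doxycycline for 6 h and, for 1 h, LPS (lipopolysaccharide, a bacterial cell wall component that activates macrophages), at 1 µg/ml of either. Each group had 3 libraries of ribosome-depleted RNA, 9 in all, and 0 libraries lacked doxycycline or LPS. Each construct was carried by its own transduced cell population, so that differences between populations and the action of the transgene cannot be told apart. The p-values measure the spread between these samples that is left after the model's term for library date.

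The AU-rich motifs below are the letters that TTP is known to prefer, shown because they are what makes these mRNAs candidates. Searched on the sense strand of the annotated 3'UTR were the pentamer ATTTA, the heptamer TATTTAT and the nonamer, which is the heptamer with a further T on each side. Every nonamer contains a heptamer and every heptamer a pentamer, so the 3 counts overlap. For each mRNA the first match of the longest motif it holds is printed with 10 bases on either side, in capitals for the motif, on the mRNA's strand, with its position in the GRCm38 mouse genome (GENCODE release M21).
Ptgs2, chr1:150105790-150105818, plus strand: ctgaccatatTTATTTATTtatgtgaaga
Pim1, chr17:29495689-29495717, plus strand: tttaatgtatTTATTTATTtatttatttg
Pim3, chr15:88865222-88865248, plus strand: cacggtctctTATTTATggtgtgatca
Plk2, chr13:110400734-110400762, plus strand: aataaactttTTATTTATTacagccccaa
Plk3, chr4:117128718-117128746, minus strand: tggaccacttTTATTTATTaacagacatt
Myc, chr15:61990137-61990161, plus strand: acagatttgtATTTAattgtttttt
Ccnd1, chr7:144931311-144931337, minus strand: tacagaagagTATTTATgggaaaggct
Vegfa, chr17:46017166-46017194, minus strand: ttgttatcatTTATTTATTggtgctactg
Plaur, chr7:24475679-24475703, plus strand: tattgctctaATTTAttatataaat
Hif1a, chr12:73946005-73946033, plus strand: atgcacctttTTATTTATTtatttttggt
The sequence of Vegfa comes from its transcript with the longest 3'UTR, chosen after the counts were seen, because the transcript with the longest coding sequence held no match.

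The mRNAs differed widely in these motifs. Ptgs2 held the most pentamers and heptamers, 14 and 6, and 1 nonamer in a 3'UTR of 2445 bases whose first nonamer lay 17 bases after the stop codon. Pim1 held 5 pentamers, 4 heptamers and 3 nonamers in 1365 bases, and Hif1a 8, 3 and 2 in 1827 bases. The short 3'UTR of Plk3, 332 bases, held 4 pentamers, 3 heptamers and 2 nonamers, the densest of the 10 at 12.0 pentamers per kilobase.

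Plk2 held 2 pentamers, 2 heptamers and 1 nonamer in 620 bases, Pim3 5, 2 and 0 in 964 bases, and Ccnd1 5, 1 and 0 in 2676 bases. Myc and Plaur held 2 pentamers each, in 442 and 496 bases, and neither a heptamer nor a nonamer. Vegfa held 0 of any in the 315-base 3'UTR of the transcript with the longest coding sequence, but 9, 3 and 1 in the longest annotated 3'UTR of 1865 bases.

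In all, 9 of the 10 mRNAs held a pentamer, 7 a heptamer and 5 a nonamer, or 10, 8 and 6 with the longest 3'UTR. Of the 10768 genes listed in all comparisons with an annotated 3'UTR, 66.5% held a pentamer, 27.7% a heptamer and 7.16% a nonamer. These shares rest on the transcript with the longest coding sequence, so they stand beside 9, 7 and 5 and not beside 10, 8 and 6. Length matters for such counts. Among genes with a 3'UTR within 20% of the same length, a heptamer count at least as high as that of the member was found in 0.376% for Ptgs2, 0.459% for Plk3, 0.795% for Pim1, 3.29% for Hif1a, 3.64% for Plk2 and 4.67% for Pim3, but in 47.3% for Ccnd1. A match is a description of the letters and not a bound site, and since the mRNAs were picked as AU-rich targets, their motif counts are no independent result.

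**Figure D1:**
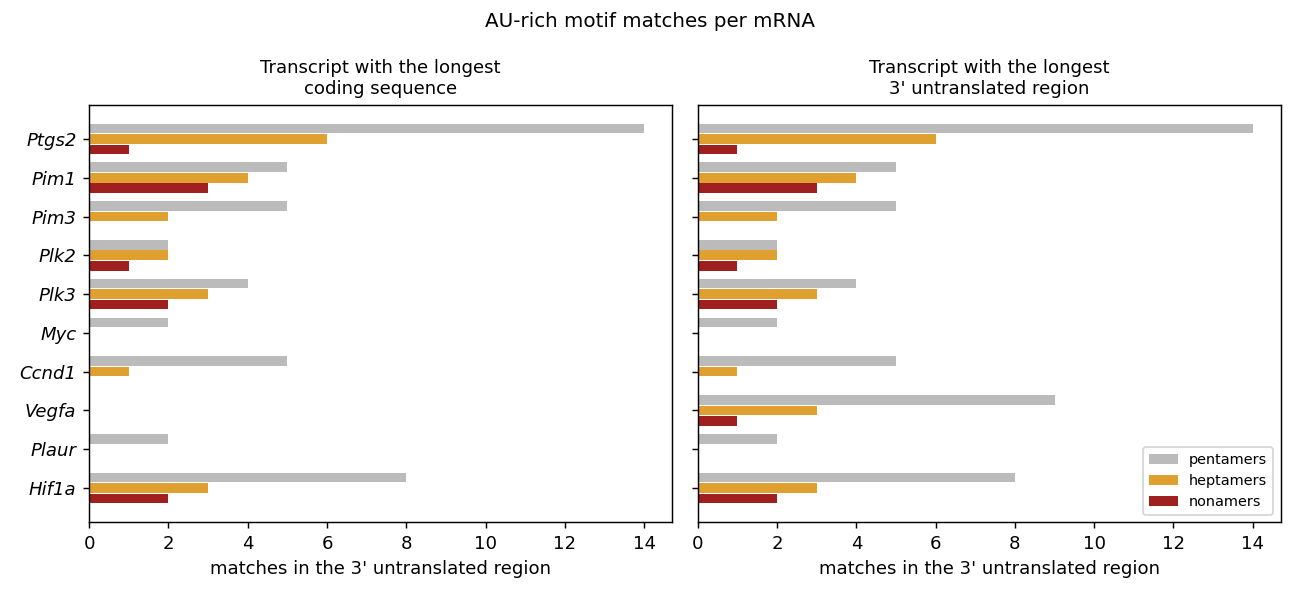
Number of pentamer, heptamer and nonamer matches in the 3'UTR of each of the 10 mRNAs (horizontal bars, x axis in matches), for the transcript with the longest coding sequence on the left and that with the longest 3'UTR on the right. Ptgs2 has the longest bars at 14 pentamers and 6 heptamers, and Vegfa goes from 0 matches on the left to 9 pentamers on the right.

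The deposited expression values are fitted means of the DESeq2 model, that is, a library factor times a term for the replicate number times a term for the group, and they hold no scatter between replicates. The order of the groups is therefore the same at every replicate number by construction, and whether the libraries of 2 groups overlap only sets the fitted group term against the fitted replicate-number term. A level below is such a fitted count with the library factor divided out. Sums of the fitted values ran from 21482953 to 102613525 per library. The error of a change is in the deposited comparisons, which give a log2 fold change and the standard error (SE) of each, and an mRNA was called where the DESeq2 adjusted p over all listed genes was under 0.05. Zfp36, whose level here can include the transgene's coding sequence and the transcript left at the disrupted locus, was at 1742, 1422 and 889.1 in GFP, 1785, 1446 and 912.0 in TTP, and 2825, 2296 and 1441 in TTP-AA. It was higher by 0.69 ± 0.17 (log2 ± SE, DESeq2 adjusted p 0.000682) in TTP-AA than in GFP, whereas the change of TTP against GFP was 0.04 ± 0.17 (adjusted p 0.93), so that TTP and GFP could not be told apart by this mRNA. Zfp36 was also higher in TTP-AA than in TTP (0.65 ± 0.17, DESeq2 adjusted p 0.000902). At the protein level, the paper reports by western blot that both GFP fusion proteins were present in similar amounts. All 10 macrophage markers found were above 100 in every library, with summed levels of 609480 to 838221 in GFP, 513840 to 697339 in TTP and 690417 to 944267 in TTP-AA. Single markers were called in both directions: against TTP, TTP-AA had higher Emr1 (2.69-fold), Lyz2 (1.38-fold) and Spi1 (1.32-fold) and lower Ptprc (0.792-fold), and Emr1 was lower in TTP than in GFP (0.595-fold). Of 11 markers of other cell types, 8 were below 10 in every library and only S100a8 and Flt3 were above 100 in every library, with summed levels of 363 to 452 in GFP, 355 to 443 in TTP and 412 to 546 in TTP-AA. S100a8, a neutrophil marker, was called higher in TTP-AA than in TTP (1.67-fold, DESeq2 adjusted p 0.0033) and than in GFP (1.70-fold, adjusted p 0.00415). The part of these differences in the results below was not tested.

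Per kilobase of transcript, the levels of the 10 mRNAs in GFP cells ran from 9282.0 for Ccnd1 and 5890.2 for Plk2, through 1934.9 for Pim1, 1799.9 for Plaur, 1391.3 for Ptgs2, 1378.9 for Hif1a and 1251.8 for Pim3, to 252.1 for Vegfa, 161.7 for Plk3 and 152.0 for Myc. Ccnd1 was thus the most abundant of these mRNAs after 1 h of LPS, and Vegfa, Plk3 and Myc formed a lower tier. The per-kilobase values rest on the annotated transcript with the longest coding sequence.

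**Figure D2:**
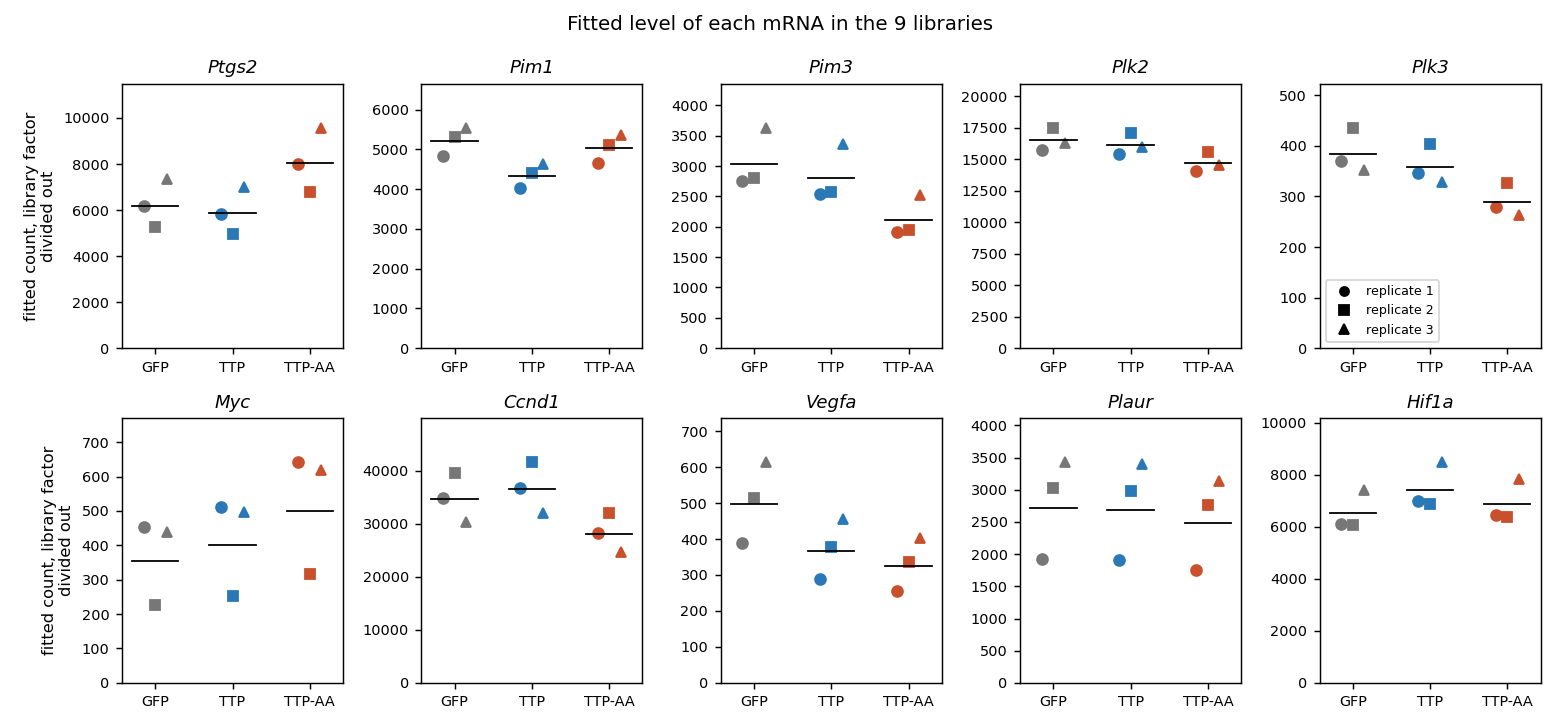
Fitted count with the library factor divided out (y axis, from 0, a separate scale for each mRNA) in the 9 libraries, by group. Symbols mark the replicate number and bars the geometric mean of the group. Pim3 lies lower in the 3 TTP-AA libraries, at 1915 to 2525, than in the 3 GFP libraries, at 2753 to 3632, whereas the 3 groups overlap for Ptgs2, Myc, Vegfa, Plaur and Hif1a; the same order of replicate numbers recurs in every group because the values are fitted.

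The first question was whether TTP, returned to cells that lack it, lowered these mRNAs. None of the 10 passed the test between TTP and GFP, where 9.16% of all 11977 listed genes did, 4.08% higher and 5.08% lower. At an unadjusted p under 0.05 the comparison held 1 member, Vegfa, against 21.3% of all genes. The median change over the members was -0.04 on the log2 scale, beside 0.01 over all genes, with 3 changes above 0 and 7 below.

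The second question was whether TTP-AA, which MK2 cannot inactivate at these serines, lowered them. Against GFP, 3 of 10 passed the test, where 17.9% of 13205 genes did. Pim3 and Vegfa were lower, 2 of 10 against 8.77% of all genes, and Myc was higher, 1 of 10 against 9.11%. With only 10 mRNAs, such counts do not set the members apart from the background. The median change was -0.15, beside 0.00 over all genes, and 5 members had an unadjusted p under 0.05 (29.1% of all genes), these being the 3 called and Plk3 and Ptgs2.

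The direct comparison of both TTP forms called 2 of 10 members, where 28.6% of 13205 genes were called. Ptgs2 was higher under TTP-AA than under TTP, 1 of 10 against 14.0% of all genes, and Pim3 lower, 1 of 10 against 14.6%. The median change was -0.13, beside -0.01 over all genes, and 3 members had an unadjusted p under 0.05 (38.0% of all genes). A Wald test for any difference among the 3 groups, Benjamini-Hochberg adjusted over 11977 genes, called Pim3 (adjusted p 1.71e-05), Myc (adjusted p 0.0122) and Vegfa (adjusted p 0.0184), 3 of 10 where 33.1% of all genes passed. The 3 comparisons share libraries and are not independent of each other.

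**Figure D3:**
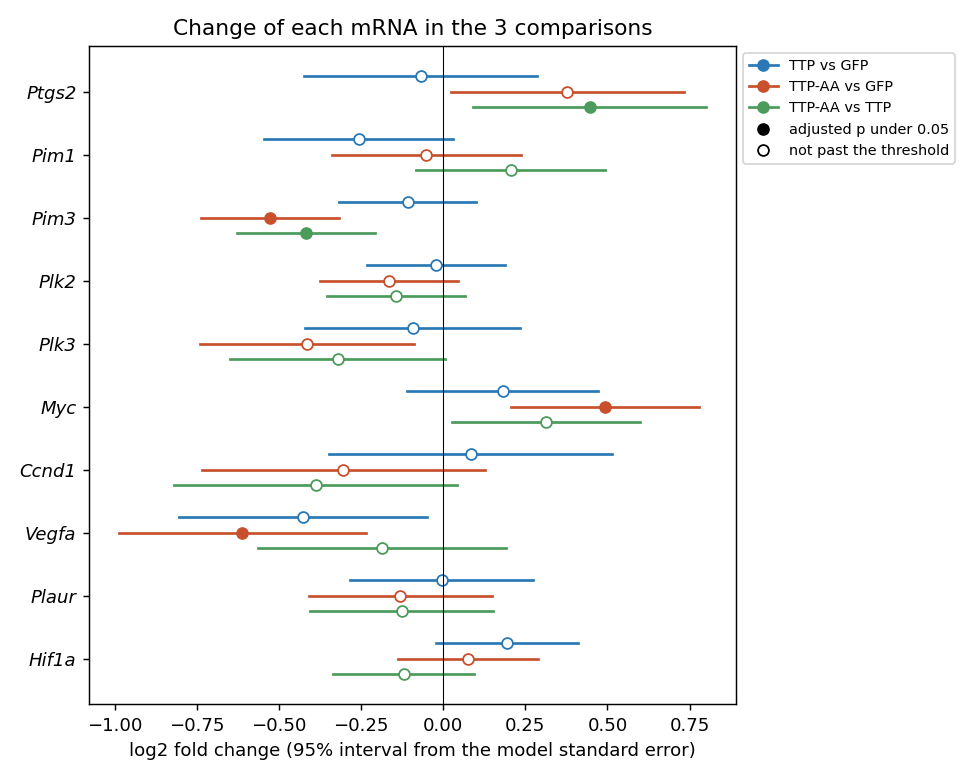
Log2 fold change of each mRNA (x axis) in TTP against GFP, TTP-AA against GFP and TTP-AA against TTP, with lines for the 95% interval from the model's SE and filled points for a DESeq2 adjusted p under 0.05. The 5 filled points are both of Pim3, at -0.53 and -0.42, Vegfa at -0.61, Myc at 0.49 and Ptgs2 at 0.45; no point of TTP against GFP is filled.

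Among the kinases, Pim3 was the only one called, in both comparisons with TTP-AA. PIM kinases are constitutively active serine/threonine kinases that promote survival and cap-dependent translation, and they are controlled mainly through their amount. Pim3 (ENSMUSG00000035828, chr15:88862186-88865726, plus strand), whose 3'UTR holds the heptamer printed above but no nonamer, was at 2753, 2805 and 3632 in the 3 GFP libraries, 2544, 2573 and 3360 in TTP, and 1915, 1943 and 2525 in TTP-AA. The fitted values of TTP-AA did not overlap with those of GFP and only narrowly missed those of TTP, the highest of TTP-AA being 2525 and the lowest of TTP 2544. Such a gap between fitted values only sets group terms against replicate-number terms and adds no evidence to the test. How many of all genes show it was not counted.

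Pim3 was lower in TTP-AA than in GFP, 0.694-fold (95% interval 0.601 to 0.803, log2 -0.53 ± 0.11, DESeq2 adjusted p 2.73e-05). It was also lower in TTP-AA than in TTP, 0.748-fold (0.647 to 0.865, log2 -0.42 ± 0.11, adjusted p 0.000777). Between TTP and GFP the ratio was 0.928 (0.803 to 1.07, adjusted p 0.623), so that a ratio under 0.803 lay outside the interval.

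Its paralog Pim1 (ENSMUSG00000024014, chr17:29490753-29496112, plus strand), which holds more of the motifs, gave another pattern. Levels ran from 4827 to 5546 in GFP, 4022 to 4628 in TTP and 4667 to 5361 in TTP-AA, with the lowest fitted values in TTP, whose changes did not pass the test. The log2 changes were -0.26 ± 0.15 for TTP against GFP (adjusted p 0.305), -0.05 ± 0.15 for TTP-AA against GFP (adjusted p 0.867) and 0.21 ± 0.15 for TTP-AA against TTP (adjusted p 0.311). The third family member, Pim2, was low, with a mean normalized count of 134.3 over the 9 libraries and changes of -0.02, 0.14 and 0.16 in the same order, none past the threshold. Whether Pim1 and Pim3 responded differently was not tested.

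The polo-like kinases Plk2 and Plk3 are immediate early genes of stress and growth signaling, unlike the mitotic kinase Plk1. Plk2 (ENSMUSG00000021701, chr13:110395046-110400844, plus strand) was at 15751 to 17497 in GFP, 15449 to 17039 in TTP and 14077 to 15577 in TTP-AA. The fitted values of TTP-AA overlapped with TTP and not with GFP, although no change passed the test. The intervals of the changes were narrow, with ratios of 0.985 (95% interval 0.852 to 1.14) for TTP against GFP and 0.892 (0.771 to 1.03) for TTP-AA against GFP. A ratio under 0.771 was outside both intervals, while a smaller decrease could not be told from no change (DESeq2 adjusted p 0.943 and 0.313).

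Plk3 (ENSMUSG00000028680, chr4:117128655-117133963, minus strand), with the densest motifs, was at 371.0, 436.0 and 351.5 in GFP, 346.2, 403.9 and 328.5 in TTP, and 278.9, 326.4 and 264.1 in TTP-AA. The fitted group span was 0.41 on the log2 scale and the replicate-number span 0.30. The fitted values of TTP-AA did not overlap with GFP and only narrowly missed those of TTP (326.4 against 328.5), which adds no evidence to the test. The change of TTP-AA against GFP, -0.41 ± 0.17, missed the threshold (DESeq2 adjusted p 0.0647), as did -0.32 ± 0.17 against TTP (adjusted p 0.141). The change of TTP against GFP was -0.09 ± 0.17 (adjusted p 0.816).

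Ptgs2 (ENSMUSG00000032487, chr1:150100031-150108227, plus strand) encodes cyclooxygenase-2, the inducible enzyme that commits arachidonic acid to prostaglandins, and its mRNA is a textbook case of an AU-rich 3'UTR. Its level was 6158, 5247 and 7361 in GFP, 5844, 4944 and 6996 in TTP, and 8015, 6803 and 9577 in TTP-AA. The fitted level was highest in TTP-AA, and the ranges of the groups overlapped.

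By the test, Ptgs2 was higher with TTP-AA than with TTP, 1.36-fold (95% interval 1.07 to 1.74, log2 0.45 ± 0.18, DESeq2 adjusted p 0.0481). The call is marginal: the adjusted p ranged from 0.0427 to 0.905 over 8 other ways of scaling and adjusting. Against GFP the change of TTP-AA was 0.38 ± 0.18 (adjusted p 0.139) and that of TTP -0.07 ± 0.18 (adjusted p 0.883). The SE of Ptgs2 was larger than that of about 92.0% of genes with a mean of at least 100.

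Other genes of prostaglandin synthesis and response moved in both directions. Of 7 listed in TTP against GFP, 1 rose and 1 fell; of 8 listed in TTP-AA against GFP, 2 rose and 1 fell; and of 8 in TTP-AA against TTP, 3 rose and 2 fell. The shares called were 28.6%, 37.5% and 62.5%, beside 9.16%, 17.9% and 28.6% of all genes. Ptges, the inducible prostaglandin E synthase downstream of cyclooxygenase-2, was higher in TTP-AA than in GFP by 1.05 ± 0.18 (log2, DESeq2 adjusted p 3.09e-07), while Pla2g4a, the phospholipase that releases arachidonic acid, was lower (-0.64 ± 0.09, adjusted p 3.85e-11). Hpgds, the synthase of prostaglandin D2, was lower in TTP than in GFP (-0.89 ± 0.10, adjusted p 1.43e-17) and higher in TTP-AA than in TTP (1.03 ± 0.10, adjusted p 4.31e-24).

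The constitutive cyclooxygenase Ptgs1 was higher in TTP than in GFP (0.63 ± 0.14, DESeq2 adjusted p 0.000217) and lower in TTP-AA than in TTP (-0.75 ± 0.14, adjusted p 1.73e-06). In TTP-AA against TTP, Ptgs1 and Ptgs2 therefore had calls of opposite sign. The prostaglandin E2 receptor gene Ptger4 was lower under TTP-AA than under TTP (-0.71 ± 0.15, adjusted p 5.38e-05). Ptger2, another receptor of prostaglandin E2, was higher by 1.38 ± 0.23 at a mean normalized count of only 19.1 (adjusted p 5.62e-08), and is named although it lies below the mean of 50 required of named genes. Ptges2, a constitutive prostaglandin E synthase, was higher in TTP than in GFP (0.36 ± 0.12, adjusted p 0.0362), a call lost on centring each chromosome (adjusted p 0.0874). The other calls were Ptges (0.76 ± 0.18, adjusted p 0.000242) and Pla2g4a (-0.68 ± 0.09, adjusted p 8.34e-13) in TTP-AA against TTP and Ptger2 (1.05 ± 0.23, adjusted p 0.000142) in TTP-AA against GFP.

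Myc (ENSMUSG00000022346, chr15:61985391-61990374, plus strand) encodes a transcription factor of growth and ribosome biogenesis. Its level was 454.4, 225.1 and 439.1 in GFP, 512.7, 252.1 and 496.2 in TTP, and 640.9, 316.2 and 619.2 in TTP-AA. Replicate 2 was the lowest in every group, by 2.03-fold between the extreme replicate numbers, and the groups overlapped.

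Myc was higher in TTP-AA than in GFP, 1.41-fold (95% interval 1.15 to 1.72, log2 0.49 ± 0.15, DESeq2 adjusted p 0.00756). It was 1.13-fold of GFP in TTP (0.927 to 1.38, adjusted p 0.528), and TTP-AA exceeded TTP by 0.31 ± 0.15 without passing the test (adjusted p 0.094). The cells carry a human MYC oncogene, and reads from it that align to mouse Myc cannot be told apart from those of the mouse gene.

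Of 19 listed genes of the MYC network (dimer partners, antagonists and known targets), 5 were higher and 1 lower in TTP than in GFP, 2 higher and 2 lower in TTP-AA than in GFP, and 2 higher and 5 lower in TTP-AA than in TTP. Over all genes 4.08% were higher and 5.08% lower in the first of these, 9.11% and 8.77% in the second, and 14.0% and 14.6% in the third. Odc1, the polyamine synthesis enzyme and a classical MYC target, was higher in TTP than in GFP (0.29 ± 0.07, DESeq2 adjusted p 0.00165) and in TTP-AA than in GFP (0.57 ± 0.07, adjusted p 3.68e-13). Mxd1, which competes with MYC for the partner MAX, was lower in TTP (-0.66 ± 0.16, adjusted p 0.000826) and in TTP-AA (-0.51 ± 0.16, adjusted p 0.0102) than in GFP. Mxi1, another gene of the network, was instead higher in TTP than in GFP (0.28 ± 0.09, adjusted p 0.0276, or 0.756 after centring each chromosome). In TTP-AA, Mxi1 was lower than in GFP (-0.30 ± 0.09, adjusted p 0.00934) and than in TTP (-0.57 ± 0.09, adjusted p 6.18e-09). In TTP-AA against GFP, where Myc was called, Polr1b, a subunit of RNA polymerase I, was higher (0.23 ± 0.08, adjusted p 0.0194), while the nucleolin gene Ncl (-0.31 ± 0.14, adjusted p 0.128) and Cad, an enzyme of pyrimidine synthesis (-0.10 ± 0.10, adjusted p 0.554), did not pass the test. In TTP against GFP, Cad (0.32 ± 0.10, adjusted p 0.0166), Nop56, a gene of ribosomal RNA processing (0.29 ± 0.07, adjusted p 0.00255), and Polr1b (0.26 ± 0.08, adjusted p 0.0155, or 0.0611 after centring each chromosome) were higher. In TTP-AA against TTP, Ncl (-0.72 ± 0.14, adjusted p 1.28e-05) and Cad (-0.42 ± 0.10, adjusted p 0.00019) were lower.

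Ccnd1 (ENSMUSG00000070348, chr7:144929931-144939925, minus strand) encodes cyclin D1, which activates CDK4 and CDK6 in the G1 phase. It was at 34778, 39645 and 30342 in GFP, 36701, 41537 and 32066 in TTP, and 28228, 32052 and 24617 in TTP-AA. The fitted values of TTP-AA were lowest and overlapped with GFP, and no comparison passed the test. The log2 changes were 0.08 ± 0.22 for TTP against GFP (DESeq2 adjusted p 0.883), -0.30 ± 0.22 for TTP-AA against GFP (adjusted p 0.378) and -0.39 ± 0.22 for TTP-AA against TTP (adjusted p 0.183). The SE was larger than in 98.2% of genes with a mean of at least 100, so despite the high count a ratio between 0.601 and 1.09 for TTP-AA against GFP lay within the 95% interval.

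Cyclin D2 (Ccnd2) was lower under TTP-AA than under TTP (-0.59 ± 0.17, DESeq2 adjusted p 0.00392), whereas Ccnd3 did not pass the test in any comparison, with log2 changes from -0.25 to 0.03. Of 16 genes acting with the D cyclins, 1 was higher and 1 lower in TTP than in GFP, 0 higher and 3 lower in TTP-AA than in GFP, and 2 higher and 3 lower in TTP-AA than in TTP (12.5%, 18.8% and 31.2% called, beside 9.16%, 17.9% and 28.6% of all genes). The 3 lower in TTP-AA than in GFP were the CDK inhibitor genes Cdkn2d (-0.60 ± 0.15, adjusted p 0.00114) and Cdkn1a (-0.47 ± 0.11, adjusted p 0.000686), and E2f1 (-0.29 ± 0.09, adjusted p 0.0161), a transcription factor released by CDK4 and CDK6 activity. Cdk4 itself was higher under TTP-AA than under TTP (0.39 ± 0.09, adjusted p 6.56e-05). So was Cdkn2c, another CDK inhibitor gene (0.47 ± 0.10, adjusted p 4.09e-05), which was lower in TTP than in GFP (-0.36 ± 0.10, adjusted p 0.00588).

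Vegfa (ENSMUSG00000023951, chr17:46016993-46032369, minus strand) encodes vascular endothelial growth factor A, which macrophages secrete to promote vessel growth. Its level was 390.3, 514.5 and 612.9 in GFP, 289.1, 378.4 and 454.7 in TTP, and 255.9, 336.0 and 401.7 in TTP-AA. The ranges overlapped, the replicate numbers spanning 0.65 on the log2 scale and the groups 0.61.

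Vegfa was lower in TTP-AA than in GFP, 0.655-fold (95% interval 0.504 to 0.849, log2 -0.61 ± 0.19, DESeq2 adjusted p 0.0126). It was the member with the largest change in size in TTP against GFP, 0.744-fold (0.573 to 0.966), where the unadjusted p of 0.0265 did not survive adjustment (adjusted p 0.16). TTP-AA and TTP did not differ beyond the error (-0.19 ± 0.19, adjusted p 0.519). Of the paralogs, Vegfc, a growth factor for lymphatic vessels, was higher in TTP-AA than in GFP (0.64 ± 0.19, adjusted p 0.0068) and than in TTP (0.58 ± 0.19, adjusted p 0.0104), opposite in sign to Vegfa, whereas Vegfb did not pass the test in any comparison.

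Plaur (ENSMUSG00000046223, chr7:24462484-24475968, plus strand) encodes the urokinase receptor, which focuses plasmin formation at the surface of migrating cells. It was at 1919, 3031 and 3425 in GFP, 1904, 2985 and 3403 in TTP, and 1756, 2763 and 3133 in TTP-AA. The groups overlapped almost entirely, and the spread followed the replicate number, with replicate 1 the lowest in each group and a 1.79-fold range. The ratios were 0.997 (95% interval 0.821 to 1.21) for TTP against GFP and 0.913 (0.753 to 1.11) for TTP-AA against GFP (DESeq2 adjusted p 0.991 and 0.6), and the log2 change of TTP-AA against TTP was -0.13 ± 0.14 (adjusted p 0.56).

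The ligand of this receptor, urokinase (Plau), which is also a described TTP target, was lower under TTP-AA than under TTP (-0.57 ± 0.23, DESeq2 adjusted p 0.0472) but not past the threshold in the other comparisons. That call is marginal: it was lost on centring by the median, on centring each chromosome, on adjusting over the 3 comparisons together and on dividing by the spread of the Wald scores, with adjusted p from 0.032 to 0.903 over 8 alternatives. Of the plasminogen activation genes, 0 were higher and 1 lower of 6 in TTP against GFP, and 1 higher and 1 lower of 8 in TTP-AA against TTP, beside 9.16% and 28.6% of all genes called in either direction. The counts of this list in TTP-AA against GFP are not reported here, so these 2 comparisons do not describe the list as a whole. The protease inhibitor Serpine2 was lower in TTP than in GFP (-1.01 ± 0.22, adjusted p 0.000238) and higher under TTP-AA than under GFP (2.15 ± 0.21, adjusted p 1.93e-22) and than in TTP (3.16 ± 0.22, adjusted p 2.89e-45), at a mean normalized count of 89.5.

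Hif1a (ENSMUSG00000021109, chr12:73901375-73947530, plus strand) encodes the oxygen-regulated subunit of hypoxia-inducible factor 1, which in macrophages is also induced by LPS and turns on glycolytic genes and Vegfa. Its level was 6126, 6071 and 7431 in GFP, 6977, 6865 and 8475 in TTP, and 6465, 6382 and 7839 in TTP-AA. The fitted level was highest in TTP, and the groups overlapped. The ratio of TTP to GFP was 1.14 (95% interval 0.986 to 1.33, DESeq2 adjusted p 0.296), that of TTP-AA to GFP 1.05 (0.908 to 1.22, adjusted p 0.714) and that of TTP-AA to TTP 0.921 (0.794 to 1.07, adjusted p 0.456). In TTP-AA against GFP a ratio under 0.908 lay outside the interval.

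Of the genes of the HIF pathway, 0 were higher and 3 lower of 19 in TTP against GFP, 1 higher and 2 lower of 20 in TTP-AA against GFP, and 3 higher and 1 lower of 20 in TTP-AA against TTP. The shares called, 15.8%, 15.0% and 20.0%, stood beside 9.16%, 17.9% and 28.6% of all genes, and the last 2 of them lay below those of all genes. Arnt, the constitutive partner of HIF-1α, was lower than in GFP both in TTP (-0.38 ± 0.12, DESeq2 adjusted p 0.0195) and in TTP-AA (-0.34 ± 0.12, adjusted p 0.0231), but neither call held on centring each chromosome (adjusted p 0.457 and 0.145). The hexokinase gene Hk2, a glycolytic HIF target, was lower in TTP-AA than in GFP (-0.76 ± 0.12, adjusted p 3.26e-08). Ddit4, a hypoxia-induced inhibitor of mTOR signaling, was higher (0.65 ± 0.16, adjusted p 0.000866).

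For 6 of the 10 mRNAs the fitted span between replicate numbers was larger than that between groups, as it was for 60.4% of all genes. It reached 1.02 (log2) for Myc and 0.84 for Plaur, against group spans of 0.49 and 0.13. Pim3, Pim1, Plk2 and Plk3 were the members whose groups spanned more than their replicate numbers, for Pim3 0.53 against 0.40. Over the members the median spans were 0.39 between replicate numbers and 0.40 between groups, beside 0.32 and 0.25 over all genes. The replicate number has the same partition as the library date in the deposited model, and its term is removed from the changes above.

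**Figure D4:**
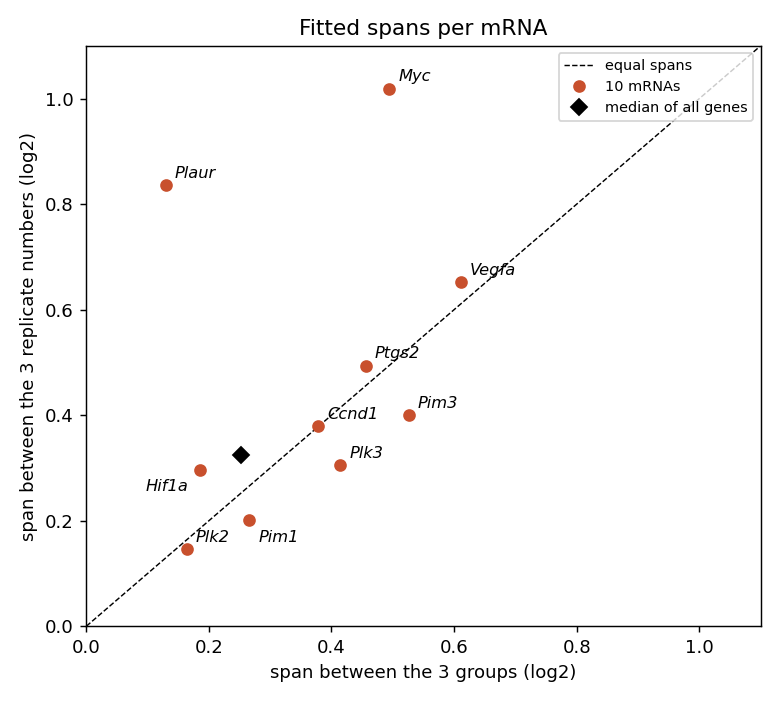
Span between the 3 replicate numbers (y axis, log2) against the span between the 3 groups (x axis, log2) of the fitted levels, 1 point per mRNA, with the median of all genes as a diamond and a dashed line for equal spans. Myc and Plaur lie far above the line, and Pim1, Pim3, Plk2 and Plk3 lie below it.

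The members were set beside 3 other lists. Of 16 further non-cytokine targets of TTP, among them Fos, Dusp1, Mcl1 and Zfp36 itself, 0 of the 15 listed passed the test in TTP against GFP with DESeq2. Of these 15, 5 had an unadjusted p under 0.05, beside 21.3% of all genes. Against GFP, TTP-AA had 3 higher and 3 lower of 16, with Ier3, an immediate early gene, lower (-0.94 ± 0.16, DESeq2 adjusted p 2.16e-07) and Zfp36 among the higher. Against TTP there were 3 higher and 2 lower of 16, with Birc3, an apoptosis inhibitor, higher by 0.65 ± 0.23 (adjusted p 0.0195).

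Of the 14 cytokine and chemokine targets listed, 0 passed in TTP against GFP with DESeq2 (1 at an unadjusted p under 0.05, beside 21.3% of all genes), 2 were higher and 1 lower in TTP-AA than in GFP, and 1 higher and 1 lower in TTP-AA than in TTP. The lower gene in both was Il23a, a subunit of interleukin-23 (-1.05 ± 0.23 against GFP, adjusted p 0.000154), whereas Tnf, the prototype target, was at -0.16 ± 0.17 against GFP in TTP-AA (adjusted p 0.586). Of the members' own relatives, 1 was higher of 9 in TTP against GFP (Ptgs1), 1 higher of 10 in TTP-AA against GFP (Vegfc), and 1 higher and 3 lower of 10 in TTP-AA against TTP (Vegfc, then Ptgs1, Ccnd2 and Plk1). Beside these counts, 9.16% of all genes were called in TTP against GFP, 17.9% in TTP-AA against GFP and 28.6% in TTP-AA against TTP. None of these lists was tested against another.

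**Figure D5:**
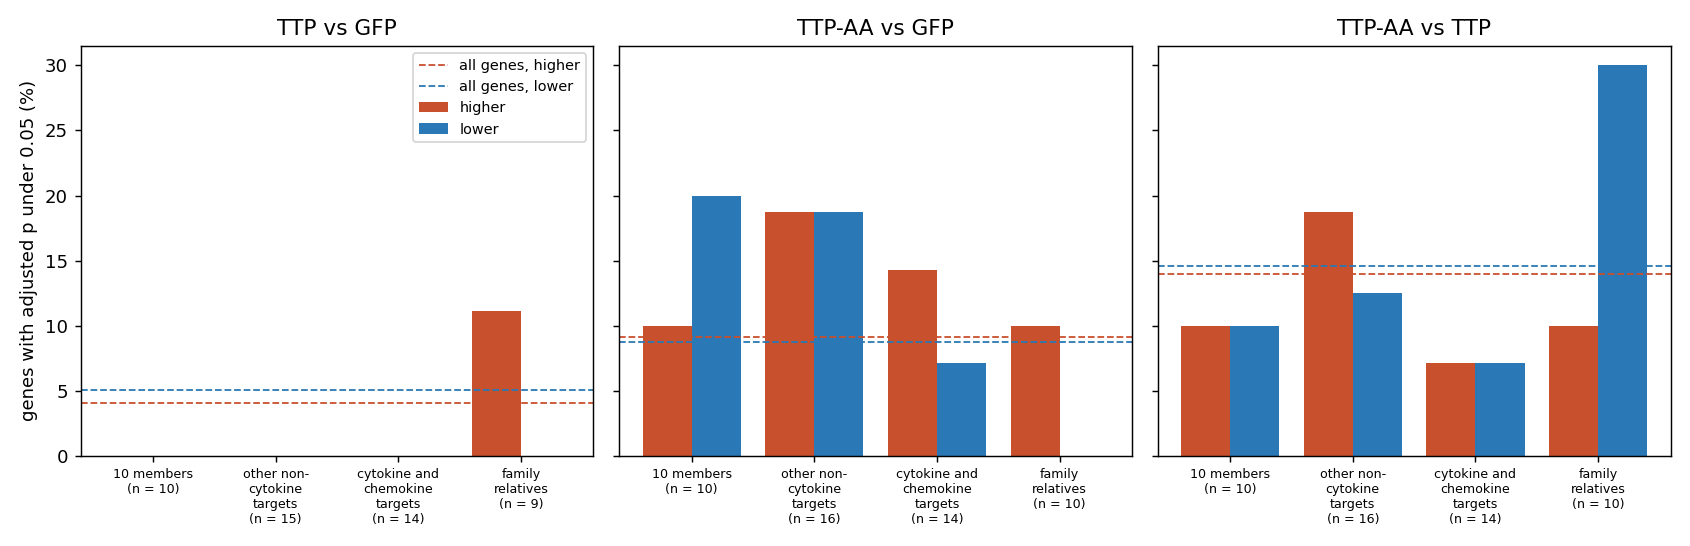
Share of listed genes with a DESeq2 adjusted p under 0.05 (y axis, percent, red higher and blue lower) in each of the 3 comparisons for the 10 members, other non-cytokine targets, cytokine and chemokine targets and family relatives, with dashed lines for all genes. In TTP against GFP only the relatives have a bar, for 1 gene of 9, and in TTP-AA against GFP the members have 1 higher and 2 lower of 10.

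Across all genes, those with a heptamer in the 3'UTR can be set beside the members. In TTP-AA against GFP, 16.8% of the 2981 genes with a heptamer were lower and 6.31% higher, against 7.5% lower and 10.4% higher of the 7787 without, and the medians were -0.07 and 0.02. With 2 or more heptamers (1008 genes) 20.0% were lower and 5.75% higher. In TTP against GFP the corresponding shares were 6.37% lower and 3.22% higher with a heptamer, against 4.94% and 4.78% without. In TTP-AA against TTP they were 19.5% lower and 11.7% higher with a heptamer, against 15.6% and 15.5% without. With 2 or more heptamers 19.9% were lower and 11.8% higher in that comparison.

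Of the 7 members with a heptamer, Ptgs2, Pim1, Pim3, Plk2, Plk3, Ccnd1 and Hif1a, Pim3 was called lower in TTP-AA than in GFP. With the longest 3'UTR, a choice made after the counts were seen, Vegfa joins them with 3 heptamers and 1 nonamer, and it too was called lower. In the shares of all genes above, which use the transcript with the longest coding sequence, Vegfa is among the genes without a heptamer. The changes of the 6 besides Pim3 and Vegfa ran from -0.41 for Plk3 to 0.38 for Ptgs2. Ptgs2, with the most heptamers of the 10, and Pim1, with the most nonamers, were not lower past the threshold in any comparison. The motif share was not tested against the change, since genes that differ in these motifs also differ in 3'UTR length and base composition.

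For 4 of the members, Pim1, Plk3, Ccnd1 and Hif1a, the annotation has exons of another gene on the opposite strand, and Hif1a also shares exons with Gm49321, a protein-coding gene on the same strand, from which strand cannot separate it. Whether the counting used strand is not given in the sources used here, and reads of the opposite-strand pairs cannot be told apart without it.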

How the data were processed

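Ribosome-depleted RNA of 9 libraries (3 each of GFP, TTP and TTP-AA) was sequenced. Per the labels, reads were processed with Trim Galore, TopHat2 (version 2.0.12), HTSeq and DESeq2 (version 1.6.3). The authors aligned to GRCm38, counted per Ensembl gene and fitted library date and condition, with Wald tests. Reads with more than 1 placement could be kept in the alignment, and whether they were counted is not given in the sources used here.

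The deposited signal values, named as normalized counts, are fitted means: their log2 values had 4 nonzero singular values after centring, where free libraries would give 8, and no value was 0. Between libraries of the same number, log2 ratios differed from the log2 fold change in the deposited comparisons by 1 constant for all genes (largest deviation 1.5e-14). They hold no replicate scatter, so a limma fit planned for that case was not used. The deposited comparison tables hold the mean signal, the log2 fold change, its standard error, the Wald score and the p-value with its adjusted value, and they gave the error and the test (two-sided, adjusted p under 0.05). Whether fold changes were shrunk is not stated in the sources used here. The highest standard error was 0.2346 in all 3 comparisons, although listed means went down to 8.983 in those with TTP-AA. A ceiling this low at such means is a mark of shrinkage, so the ratios and intervals above are to be read as pulled toward no change. Ratios said to lie outside an interval are therefore outside it only for the deposited values.

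Levels were divided by median-of-ratios library factors computed on genes whose mean was 10 or more. For the members, their ratios differed from the deposited log2 fold changes by at most 0.01. Intervals are the change ± the normal quantile for 95% times the SE. The 3-group test was a Wald chi-square on both changes against GFP, tested on simulated data. Positions, 3'UTRs and sequences came from GENCODE M21. All 10 members are named; of other lists, at most the 4 largest called changes per comparison with a mean of at least 50, apart from genes a result turns on. The values of 1 listed gene are not reported here. The members and lists were chosen with earlier results of these data known. Python 3.11.15, numpy 2.4.6, pandas 2.3.3, scipy 1.17.1 and matplotlib 3.10.9 were used.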

Additional observations from a re-analysis of the deposited data

How the results depend on the processing

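No paired analysis was possible because values per library carry no scatter, being fitted means, and the model behind them already splits the libraries by replicate number; leaving out a library, another normalization of counts and another count model could not be run for the same reason. Of 240 recomputed changes of single members, 229 kept their direction and side of the threshold, 10 changed side and 1 changed sign. Most of these changes were not called in the first place, and several settings alter only the p-value, so that the direction could not change. Of the called changes, Ptgs2 kept its call in 4 of 8 alternatives, and Pim3 (both comparisons), Myc and Vegfa in 7 of 8 each. The sign change was Hif1a in TTP-AA against GFP, at -0.079 after centring each chromosome (adjusted p 0.712). The Wald scores of all genes had a central spread of 1.51 in TTP against GFP, 1.77 in TTP-AA against GFP and 2.17 in TTP-AA against TTP, where 1 is the value for unchanged genes; dividing by it left 0 members called in TTP-AA against GFP, 0 in TTP-AA against TTP and 0 in the 3-group test, with adjusted p from 0.18 (Pim3 against GFP) to 0.905 (Ptgs2). Without that setting, the highest adjusted p of the called changes were 0.000343 for Pim3, 0.0116 for Myc and 0.02 for Vegfa in TTP-AA against GFP, and 0.016 for Pim3 in TTP-AA against TTP. Ptgs2 lost its call when a trend with GC content and length was removed (adjusted p 0.0724) and when p-values were adjusted over the 3 comparisons together (adjusted p 0.0659), which left 1 member called in TTP-AA against TTP each time. It was also lost on centring chromosomes (adjusted p 0.0518), where Myc was gained (0.42, adjusted p 0.0219). Plk3 in TTP-AA against GFP was gained on removing the GC and length trend (-0.45, adjusted p 0.0444). Of 216 counts over lists, 31 moved by over 1.5 times, 24 of them on dividing by the spread, and of 30 levels scaled by library sums 0 moved by over 1 SD. The causes were not tested. The largest sum of fitted values, 102613525, belongs to TTP-AA replicate 3, whose weight in the fit cannot be examined here.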

Other observations

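Single receptor genes of VEGF were called in each comparison. Flt1, the gene of VEGF receptor 1, which binds VEGF-A and is found on macrophages, was higher in TTP than in GFP by 1.91 ± 0.16 (log2 ± SE, DESeq2 adjusted p 1.03e-28), higher in TTP-AA than in GFP by 0.95 ± 0.16 (adjusted p 4.57e-07) and lower in TTP-AA than in TTP (-0.96 ± 0.16, adjusted p 5.44e-08). Nrp1, a co-receptor, was lower in TTP-AA than in GFP (-0.40 ± 0.13, adjusted p 0.0152) and than in TTP (-0.47 ± 0.13, adjusted p 0.00197). Kdr, the gene of VEGF receptor 2, was higher in TTP-AA in both comparisons (0.88 and 0.92) at a mean normalized count of only 22.6, and is named after its values were seen. Nrp2, another co-receptor, passed the test in none, with log2 changes of 0.093 (TTP against GFP), -0.035 (TTP-AA against GFP) and -0.128 (TTP-AA against TTP). In all, 1 of 3 receptor genes listed was higher in TTP against GFP. Of 4 listed, 2 were higher and 1 lower in TTP-AA against GFP, and 1 higher and 2 lower in TTP-AA against TTP. Over all genes 9.16%, 17.9% and 28.6% were called in either direction. With only 3 or 4 genes, such counts do not set the receptors apart from the background.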
